A study of Mus musculus with 3 samples.

Results

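The Prss genes encode serine proteases of the trypsin fold and close relatives, some of which have lost catalytic residues. The set was chosen by name: 33 of the 22843 genes in the deposited data had a symbol made of Prss and a number, and the 31 with UMIs (unique molecular identifiers, counted RNA molecules) in at least 10 cells are described. Prss32, with UMIs in 5 cells, and Prss33, with UMIs in 3, were left out. The study asked what the long non-coding RNA gene Gm4665 does in spermatogenesis. In ICR mice, one testis received AAV9 with an RFP reporter and a control hairpin (shCtrl) by microinjection and the other received AAV9 with RFP and a hairpin against Gm4665, shRNA1 or shRNA2, called hairpin 1 and hairpin 2 here. The age stated is postnatal day 21 before injection, while the promoter of the hairpins is not stated in the sources used. After removal of somatic cells, RFP+ germ cells were sorted and read with the 10x Genomics 3' kit, with cells of 3 mice per group in 1 library per group.

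Trypsin-like proteases cut proteins after basic residues, using a serine in the active site. In spermatids they are packed into the acrosome or placed on the sperm surface, where they take part in binding and crossing the coat of the egg and in the maturation of other surface proteins. Prss37 and Prss55 are known from knockouts as genes that sperm need to pass from the uterus into the oviduct, and Prss37 loss affects the sperm surface protein Adam3. The genes of chromosome 9, among them Prss42, Prss43 and Prss44, are testis genes of the Tessp group, and Prss50 is known as testes-specific protease 50.

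Because each group was 1 library, no test between groups was possible. Intervals given are 95% and cover counting error only, and the hairpins share the one control library. Levels are CPM, UMIs per 1000000 UMIs of the class and library, and since a 3' kit gives about 1 UMI per captured molecule, they were not divided by transcript length. A gene was compared in a class when it averaged 10 CPM or more over the libraries and had 30 UMIs or more. It was counted as changed at 2-fold or more from the control in the same direction with both hairpins. Folds are log2 ratios of CPM plus 1, while their intervals are of the ratio without that addition.

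There were 1418 control cells, 1732 with hairpin 1 and 1873 with hairpin 2, with medians of 19366, 14667.5 and 16518 UMIs per cell, and 18 barcodes occurred in more than 1 library. Gm4665 stood at 311, 52.8 and 79.1 CPM over all cells, so both hairpin libraries carried less of it. Clusters were made without the Prss genes and without Gm4665, and were named from markers of germ cell stages. Round spermatids were 29.4%, 28.8% and 24.5% of the 3 libraries, and elongating and condensing spermatids were 45.8%, 37.7% and 26.5%. The sort also held 21, 96 and 184 non-germ cells, mainly lymphoid and macrophage-like, and the summed level of lymphoid markers over all cells was 107, 687 and 1201 CPM. A further cluster in which Sertoli markers and those of elongating spermatids occurred together (107, 66 and 97 cells) was kept out of the germ classes. Fewer cells of a stage and less RNA per cell cannot be told apart in sums over all cells.

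The pair Prss39 and Prss40, known as the acrosomal proteases Tesp1 and Tesp2, lies at chr1:34498410-34560943 (mm10), with 40904 bases between the genes and the genes on opposite strands. Their 150 bases before the RefSeq start (GRCm38.p6) are shown because the pair shared the longest run among the 231 pairs of Prss genes with a promoter entry. The run, in capitals, has 19 bases and occurs in 2 of 32851 upstream windows of 250 bases, against shared runs of 6 to 13 bases in the other pairs. It ends 38 bases before the start of Prss39 and 44 bases before that of Prss40, and in the global alignment of the 150 bases 100 of 129 aligned positions were identical (77.5%). The windows are chr1:34498262-34498411 on the plus strand for Prss39 and chr1:34560944-34561093 on the minus strand for Prss40.
Prss39: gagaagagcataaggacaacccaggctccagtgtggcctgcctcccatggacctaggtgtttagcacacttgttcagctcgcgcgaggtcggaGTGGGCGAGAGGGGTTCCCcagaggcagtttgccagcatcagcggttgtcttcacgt
Prss40: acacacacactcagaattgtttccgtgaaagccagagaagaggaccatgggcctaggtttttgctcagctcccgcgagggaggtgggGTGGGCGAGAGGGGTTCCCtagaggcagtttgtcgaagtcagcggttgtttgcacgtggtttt

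Prss37 and Prss58 on chromosome 6 are shown for contrast, as neighbours with similar late profiles. Both lie on the minus strand, 375761 bases apart, and their windows are chr6:40519509-40519658 and chr6:40900388-40900537. Their longest shared run, in capitals, has 9 bases, within the range of the other pairs, and 79 of 130 aligned positions were identical (60.8%).
Prss37: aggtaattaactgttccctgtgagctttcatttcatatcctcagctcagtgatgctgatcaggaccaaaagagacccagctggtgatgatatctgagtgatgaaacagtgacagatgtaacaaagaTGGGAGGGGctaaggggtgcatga
Prss58: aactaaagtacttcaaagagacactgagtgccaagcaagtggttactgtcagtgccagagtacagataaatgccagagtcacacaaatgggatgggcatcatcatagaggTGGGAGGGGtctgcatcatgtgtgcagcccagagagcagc

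RefSeq promoter entries were found for 22 of the 31 genes (29 windows). Both strands of the 250 bases before the start were searched for letters linked to germ cell factors. TGACGT, the shorter form of the site of cAMP-responsive factors such as Crem, occurred in 0 of the 29 windows and in 6.47% of all windows. Its full form TGACGTCA occurred in 0 of the 29 and in 1.55%. CNGTTA, the core letters of Myb sites, occurred in 4 of the 29 windows (Prss23, Prss37, Prss45 and Prss54) and in 19.8% of all windows. CCAAT occurred in 9 of the 29 windows, of 9 genes, and in 33.8% of all windows. These are matches of letters in a short window.

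Across the germ line the genes fell into a sequence of stages. By mean CPM over the 3 libraries, 6 of the 31 genes were highest in spermatogonia, 3 in leptotene to zygotene spermatocytes, 11 in pachytene to diplotene spermatocytes, 3 in round spermatids and 8 in elongating and condensing spermatids. The class was the same in all 3 libraries for 4, 1, 8, 2 and 7 of them. With only genes of at least 30 UMIs, the numbers by class were 4, 3, 9, 3 and 8. Prss16, Prss35, Prss57 and Prss30 averaged 3.29, 1.25, 0.734 and 0.734 CPM in non-germ cells, more than in any germ class. In all, 21 genes passed the filter in at least 1 germ class or over all cells. The other 10 (Prss12, Prss16, Prss2, Prss23, Prss27, Prss30, Prss35, Prss53, Prss57 and Prss8) had 0.104 to 5.10 CPM over all cells and were not compared.

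**Figure D1:**
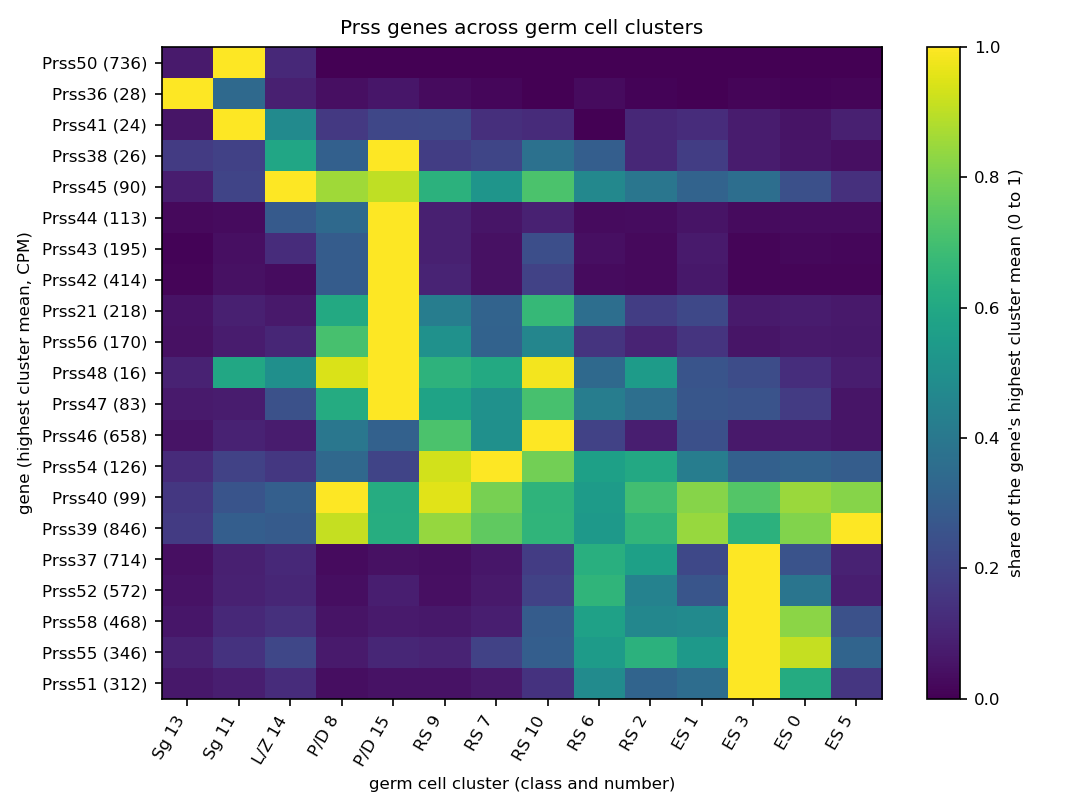
Mean level of the 21 compared Prss genes in each germ cell cluster, averaged over libraries with at least 20 cells of the cluster and scaled to the gene's highest cluster mean (given in CPM beside the name). Columns run from spermatogonia (Sg) over leptotene to zygotene (L/Z) and pachytene to diplotene (P/D) spermatocytes to round (RS) and elongating or condensing (ES) spermatids, and the bright cells shift from Prss50 in Sg 11 to Prss37, Prss52, Prss58, Prss55 and Prss51 in ES 3.

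Prss39 was the most abundant member by far. Over all cells it stood at 630.1, 641 and 557 CPM in the control, hairpin 1 and hairpin 2 libraries, and 98.01% of the 5023 cells held at least 1 of its UMIs. In the order of all-cell levels Prss37, Prss58, Prss46, Prss55, Prss52, Prss51 and Prss40 followed, at means of 170.1 down to 72.5 CPM, and each of these overlapped the next over the 3 libraries except Prss40. Prss39 did not overlap Prss37, nor Prss40 the next gene, Prss54, at a mean of 56.2 CPM.

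The acrosomal pair Prss39 and Prss40 was highest from pachytene onward, through to the condensing cells. In the control, Prss39 went from 177 CPM in spermatogonia and 268 in leptotene to zygotene cells to 781 in pachytene to diplotene cells, and stood at 585 in round and 703 in elongating spermatids. Its level in non-germ cells was 167, 191 and 161 CPM in the 3 libraries, so the values in spermatogonia (177, 182 and 195) were at the level of background RNA. Prss40 had the same course at a lower level, with 108, 80.6 and 87.6 CPM in the control in pachytene to diplotene, round and elongating cells. Across 41 points (germ clusters in libraries with at least 20 cells, which share depth and scaling within a library) the log2 levels of the pair had a Pearson r of 0.91. Over the same points the non-member genes most like Prss39 were Svip (r = 0.98) and Aqp11 (0.97).

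In elongating spermatids Prss39 stood at 703, 714 and 705 CPM, a log2 difference of 0.02 (interval -0.02 to 0.06) with hairpin 1 and 0.00 (-0.04 to 0.04) with hairpin 2. Prss40 was at 87.6, 73.4 and 77.8 CPM there (-0.25 and -0.17), and with total UMI scaling it was lower than the control in both hairpin libraries in each of the 5 germ classes. The widest gap was in leptotene to zygotene cells, at 41.7, 22.2 and 25.7 CPM (-0.88, interval -1.47 to -0.37, and -0.68, -1.06 to -0.34), where non-germ cells held 25.0, 16.1 and 19.3 CPM. The exons of Prss40 overlap those of Cfc1 on the other strand by 289 bases, and Cfc1 had at most 0.198 CPM in any library. Whether strand was used in counting is not known, and the part of the overlap in the levels of Prss40 was not tested.

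Prss50 was highest in spermatogonia about to enter meiosis. It reached 905, 663 and 640 CPM in cluster 11, whose leading genes include Stra8 and Rhox13, against 75.4, 38.4 and 43.7 in cluster 13, the spermatogonia led by Crabp1 and Dmrt1. In leptotene to zygotene cells it stood at 87.4, 86.0 and 80.8 CPM, and its mean was at most 2.79 CPM in every pachytene and spermatid cluster. Its profile was the most opposed to that of Prss39 among pairs of Prss genes with at least 1000 UMIs each (r = -0.80).

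Over the whole spermatogonia class Prss50 was lower with both hairpins. Its levels were 485, 214 and 230.3 CPM, a log2 difference of -1.18 (interval -1.38 to -0.99) and -1.07 (-1.26 to -0.89). Prss50 and Prss58 were the 2 of 14 compared Prss genes at least 2-fold lower there, against 1.02% of all genes, and 0 were higher (1.26%). The make-up of the class moved with this, as cluster 11 was 53.6%, 38.3% and 36.7% of its cells. With both clusters weighted as in the control, the differences of Prss50 were -0.48 and -0.52, and it stayed under the control in each cluster. The control values rest on few cells, 30 in cluster 11 and 26 in cluster 13. Hairpin 1 had 57 and 92 cells there, and hairpin 2 had 65 and 112. Prss58 in spermatogonia stood at 67.0, 28.6 and 18.6 CPM beside 52.7, 42.0 and 21.2 in non-germ cells, which puts it near background. Prss36, known as polyserase-2, was the other compared gene highest in spermatogonia, at 16.2, 28.6 and 19.8 CPM.

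The 6 genes Prss42, Prss44, Prss43, Prss45, Prss46 and Prss50 stand side by side on the plus strand at chr9:110798166-110864629 (mm10), within 66464 bases. Gm4665 lies on the same chromosome, 4315775 bases away. Neighbours are 1444 to 10239 bases apart, and they did not share 1 profile. Prss45 averaged highest in leptotene to zygotene cells, at 85.6, 92.3 and 92.3 CPM, although in the control its level in pachytene to diplotene cells was above that, at 91.2. Prss42 was highest in pachytene to diplotene cells, at 144, 122 and 123 CPM, with Prss43 at 69.9, 57.9 and 56.7 and Prss44 at 46.5, 36.4 and 39.2. Prss46 averaged highest in round spermatids, at 207, 349 and 289 CPM, only 1.09 times its mean in pachytene to diplotene cells, and in the control the latter were higher, at 230.4. The highest r within the row was 0.92 between Prss42 and Prss43, and the lowest among the 5 genes other than Prss50 was 0.40.

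**Figure D2:**
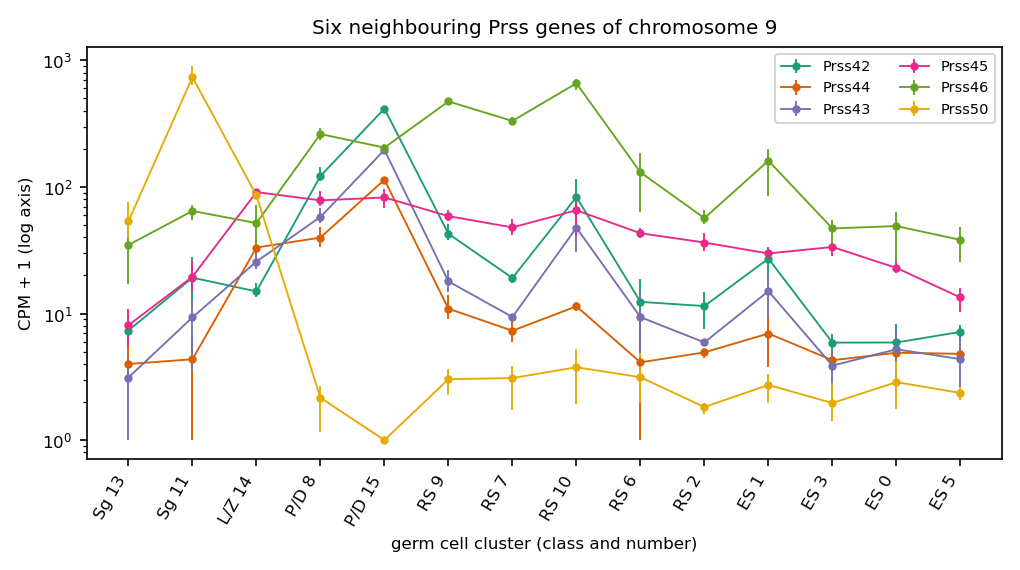
CPM plus 1 (log axis) of the 6 neighbouring Prss genes of chromosome 9 in each germ cell cluster, as the mean over libraries with at least 20 cells, with bars from the lowest to the highest library and lines to guide the eye. Prss50 peaks in Sg 11, Prss45 in L/Z 14, Prss42, Prss43 and Prss44 in P/D 15, a cluster with 6 control cells that gives values for the hairpin libraries alone, and Prss46 in RS 10.

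Cluster 15 was 61 pachytene to diplotene-like cells led by Car5a, with a median of 10316 UMIs per cell. It held the highest means of Prss42 (414 CPM), Prss43 (195) and Prss44 (113). Only the hairpin libraries had 20 or more of its cells (28 and 27, against 6 in the control), so it was not compared by itself. It was 7.06%, 14.2% and 11.2% of the pachytene to diplotene cells and is in the pooled values of that class.

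In pachytene to diplotene spermatocytes 0 of 17 compared Prss genes were 2-fold higher (0.161% of all genes) and 0 were 2-fold lower (0.176%). At any size, 13 of the 17 were lower with both hairpins against 37.7% of all genes, and 3 were higher against 35.5%. The 13 include the 5 late genes treated below, which stood at 14.0 to 33.9 CPM in the control. Averaged over the libraries, all 5 were lower here than in non-germ cells, as Prss37 at 21.1 beside 31.6 CPM. This puts them near background. Prss42, Prss43, Prss44 and Prss45 were lower by small steps, from -0.23 to -0.37 on the log2 scale. Without cluster 15, in cluster 8 alone, Prss42 stood at 142, 109.6 and 111 CPM (-0.37 and -0.35) and Prss44 at 47.1, 32.7 and 36.5 (-0.51 and -0.36). Prss46 was higher over the class (230.4, 288 and 256 CPM). Other members highest in this class were Prss21, the membrane-anchored testisin, at 144, 122 and 140.4 CPM, Prss56, known for its role in eye growth, at 117, 130.1 and 119.6, and Prss47 at 49.4, 57.8 and 49.3. Prss48 stood at 18.7, 11.8 and 14.0 CPM. In leptotene to zygotene cells, where Prss38 was at 11.5, 21.1 and 13.9 CPM and Prss41 (Tessp1) at 11.9, 12.5 and 10.3, 0 of 19 compared genes were 2-fold higher (0.251%) and 0 lower (0.660%). By cluster, Prss41 was highest in the spermatogonia of cluster 11, at a mean of 24.2 CPM, beside 1.38 in cluster 13.

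A group of 5 genes formed the late set: Prss37, Prss58, Prss55, Prss51 and Prss52, all those highest in elongating spermatids with at least 1000 UMIs. Prss55, Prss51 and Prss52 lie together at chr14:64075438-64113755 (mm10), within 38318 bases. The gene bodies of Prss55 (minus strand) and Prss51 (plus strand) overlap by 3929 bases, with 0 shared exon bases. All 5 peaked in cluster 3, elongating spermatids led by Faiml and Hemgn, at means of 714 CPM for Prss37, 572 for Prss52, 468 for Prss58, 346 for Prss55 and 312 for Prss51. They differed in how they faded: in cluster 5, the latest condensing cells, Prss52 was at 48.0 and Prss37 at 69.6 CPM, while Prss58 was at 116 and Prss55 at 112. Between the 5 genes r ranged from 0.91 to 0.97 over the 41 points, and against the 5 genes of chromosome 9 from -0.60 to -0.01. The late set was picked by its highest class in these same cells, so both ranges follow in part from that choice. The non-member genes most like Prss37 were Trp53tg5 (r = 0.98) and Tuba8 (0.98), those most like Prss58 were Gm136 (0.98) and Cstl1 (0.98), and those most like Prss55 were Iqcf1 (0.98) and Chn2 (0.98).

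Over all cells all 5 late genes were lower in both hairpin libraries. Prss37 stood at 253, 151 and 106 CPM, Prss58 at 223, 148.7 and 105, and Prss52 at 201, 122 and 91.5. Prss55 was at 188, 129 and 98.2, and Prss51 at 116, 81.3 and 57.5. The control was highest and hairpin 2 lowest for each of the 5. The log2 differences ran from -0.50 to -0.74 with hairpin 1 and from -0.93 to -1.24 with hairpin 2, and none was 2-fold lower with both. In the whole set over all cells, 0 of 17 compared genes were 2-fold higher (1.23% of all genes) and 0 lower (0.495%), and at any size 7 were higher (61.0%) and 6 lower (28.2%). The median difference was 0.02 and 0.05 for the 17 genes against 0.23 and 0.25 for all 7068 genes compared. Trimmed mean scaling moved the latter to -0.04 and -0.10, and with it 5 members were higher and 9 lower. Prss37 then was past 2-fold, at -1.02 and -1.59, while Prss39 went from 0.02 and -0.18 to -0.25 and -0.53.

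In round spermatids the late genes again stood lower together. Prss37 was at 252, 129 and 145 CPM, a log2 difference of -0.96 (interval -1.06 to -0.88) with hairpin 1 and -0.79 (-0.88 to -0.71) with hairpin 2. Prss58 was at 159, 85.3 and 86.7, Prss55 at 169, 82.5 and 100.4, Prss51 at 74.6, 39.6 and 43.3, and Prss52 at 175, 89.8 and 102 CPM. The 5 differences ran from -1.02 to -0.74, none past 2-fold with both hairpins, and in each gene the control lay above both hairpin libraries. Summed markers of elongating and condensing spermatids within round spermatids were lower too, at 65288, 40081 and 46373 CPM. The part of this in the differences was not tested. Thinned to 10000 UMIs per cell, 73.9%, 40.1% and 42.6% of round spermatids held a Prss37 UMI (exact binomial intervals 69.2 to 78.2, 34.3 to 46.0 and 37.1 to 48.1), against 85.6%, 67.3% and 58.8% before thinning. In non-germ cells, at the same depth, the shares were 28.6%, 37.2% and 15.2%. The thinning left out 34, 217 and 130 round spermatids, so the thinned and unthinned shares cover different cells. Round clusters 10 and 6 had the lowest medians, 9316 and 10210 UMIs per cell, with mean Prss37 at 127 and 451 CPM. Clusters 7, 2 and 9 had medians of 15203, 20841.5 and 42072.5 UMIs, with Prss37 at 42.6, 405 and 25.3 CPM. The part of the left-out cells in the shares was not tested.

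The make-up of the round spermatids moved with this. Cluster 2, led by genes such as Tmco5b, was 36.9% of them in the control and 16.6% and 16.8% with the hairpins, and cluster 6 was 20.1%, 13.0% and 5.66%. These are the round clusters in which the late genes are high. With the clusters weighted as in the control, the 5 differences ran from -0.33 to -0.05, and Prss37 came to -0.05 with each hairpin. Within cluster 2, Prss37 stood at 410.3, 397 and 407 CPM.

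**Figure D3:**
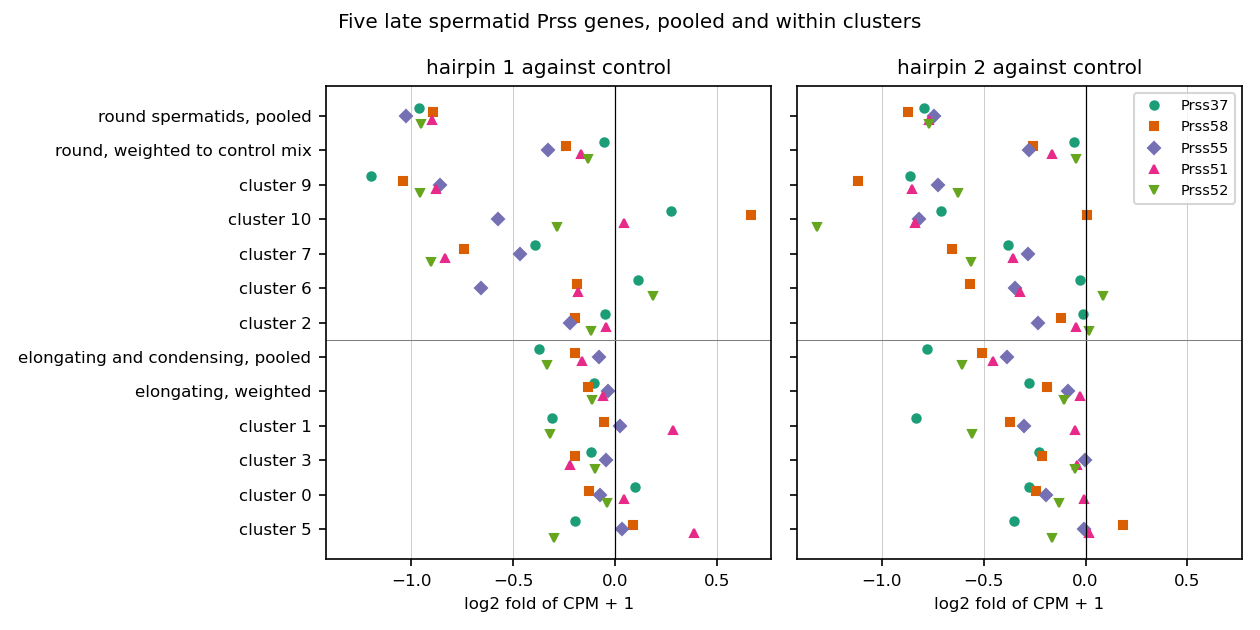
Log2 differences from the control for the 5 late genes (1 symbol each) in hairpin 1 (left) and hairpin 2 (right), pooled over a class, weighted to the control's mix of clusters, and within single clusters. Pooled values in round spermatids lie between -1.02 and -0.74, and weighted ones between -0.33 and -0.05.

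Within clusters the differences of the late genes varied in size. In cluster 3 their differences ran from -0.23 to 0.00 over both hairpins, in cluster 2 from -0.23 to 0.02, and in cluster 0 (Tnp2 and Cstl1) from -0.28 to 0.10. In cluster 6, where Prss37 was at 442, 478 and 434 CPM, they ran from -0.66 to 0.19, with Prss55 lowest. In cluster 5 they ran from -0.35 to 0.39, in cluster 1 from -0.83 to 0.28, and in cluster 10 from -1.32 to 0.67. In cluster 7 (Plin2), where Prss37 was at 50.7, 38.4 and 38.7 CPM, they ran from -0.90 to -0.28. In cluster 9, a round-like cluster named by a narrow margin over pachytene, Prss37 was at 38.8, 16.4 and 20.9 CPM and the 5 differences ran from -1.20 to -0.63. Non-germ cells held 33.3, 44.7 and 16.7 CPM of Prss37, so cells that should lack the gene were near the level of clusters 7 and 9. The part of this background in the differences was not tested.

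In elongating and condensing spermatids Prss37 stood at 352, 271 and 205 CPM (-0.37, interval -0.43 to -0.32, and -0.78, -0.85 to -0.72). Prss55 was at 255, 241 and 195 CPM. Over the 5 genes the differences ran from -0.78 to -0.08 pooled and from -0.28 to -0.03 with clusters weighted as in the control. Cluster 3 was 23.1%, 13.5% and 11.1% of these cells.

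**Figure D4:**
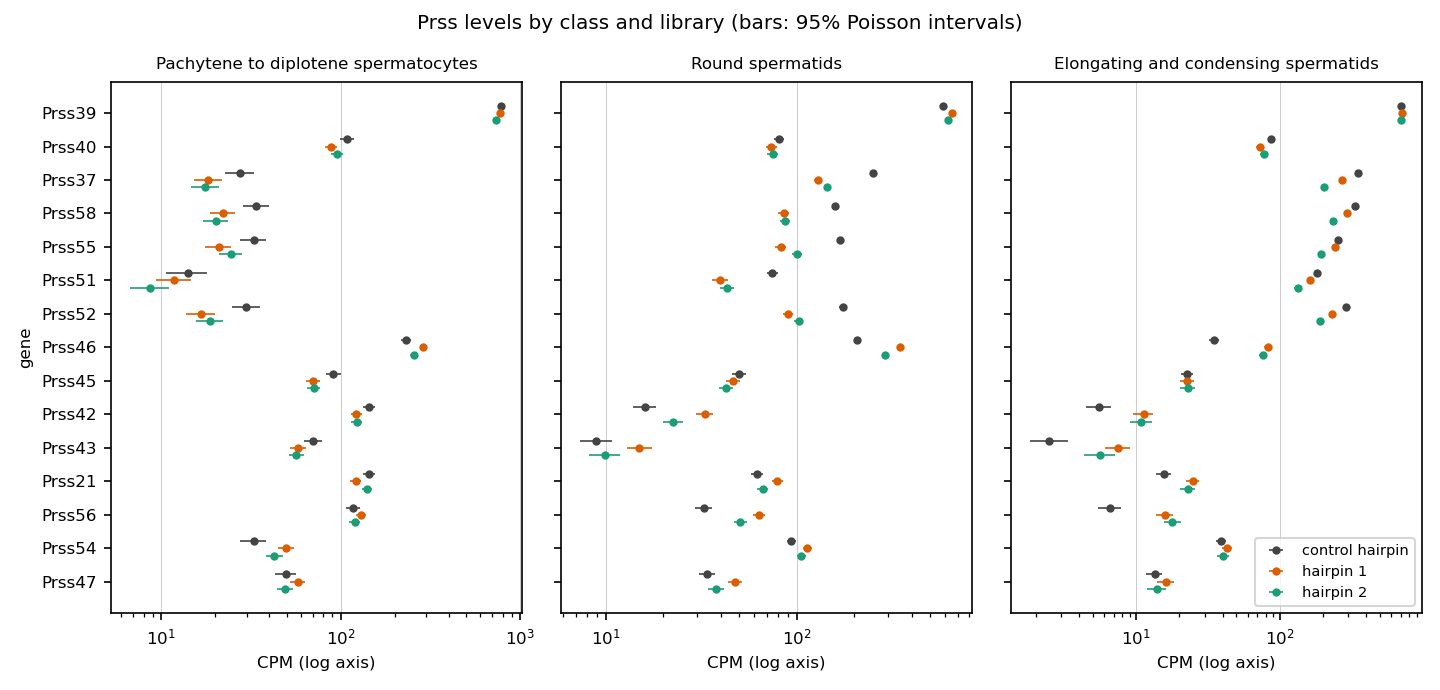
CPM (log axis) of 15 Prss genes in 3 classes (pachytene to diplotene, round, elongating and condensing), with 1 point per library and exact Poisson 95% intervals. The control lies above both hairpin libraries for the 5 late genes in each panel, and below them for Prss46.

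Prss46 and Prss56, 2 of 13 compared Prss genes, were at least 2-fold higher in elongating and condensing spermatids, against 1.99% of all genes, and 0 were 2-fold lower (0.216%). At any size 6 of the 13 were higher (44.8%) and 6 lower (33.1%), and 3 and 8 with trimmed mean scaling. Prss46 stood at 34.7, 83.1 and 76.7 CPM, a log2 difference of 1.23 (interval 1.12 to 1.40) and 1.12 (0.99 to 1.29). Prss56 stood at 6.53, 15.9 and 17.9 CPM, a difference of 1.17 (0.95 to 1.62) and 1.33 (1.12 to 1.79). Both control values lie under both hairpin values. With clusters weighted as in the control, Prss46 came to 0.94 and 0.99, under 2-fold, and Prss56 to 1.01 and 1.22. Trimmed mean scaling put Prss46 at 1.12 and 0.94. Non-germ cells moved the same way, with Prss46 at 8.33 (3 UMIs), 59.9 and 44.1 CPM and Prss56 at 5.55 (2 UMIs), 13.4 and 17.3. Summed markers of pachytene to diplotene cells within elongating spermatids were 235, 418 and 413 CPM. The part of either in these differences was not tested.

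Within clusters the differences of Prss46 varied. In cluster 9 it stood at 472, 462 and 485 CPM and in cluster 7 at 355, 325 and 312. In cluster 10, led by Cd27, it was at 578, 684 and 712. In cluster 1, the elongating cluster with the smallest gap between elongating and round marker scores, it was at 83.2, 199.6 and 197. In cluster 0 it was at 24.7, 61.8 and 57.7, past 2-fold like cluster 1. Clusters 3 and 5, also elongating, were under 2-fold. Cluster 3 was at 33.8, 50.4 and 53.8 (0.56 and 0.65) and cluster 5 at 24.6, 39.4 and 47.6 (0.66 and 0.92). Of the round clusters, cluster 6 was past 2-fold, at 62.6, 184 and 142 (1.54 and 1.17), while cluster 2 was at 49.9, 65.1 and 52.0 (0.38 and 0.06). Over round spermatids as a whole it stood at 207, 349 and 289 CPM (0.75 and 0.48), and weighted to the control's clusters the differences were 0.07 and 0.00. The non-member genes most like it in profile were 1700022I11Rik (r = 0.96) and Gm6309 (0.94).

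Among 15 compared Prss genes in round spermatids, 0 were 2-fold higher (0.283% of all genes) and 0 lower (0.656%). At any size 8 were higher (53.6%) and 7 lower (31.0%), and 6 and 7 with trimmed mean scaling. Prss56 was at 32.6, 63.3 and 50.7 CPM there, Prss21 at 61.6, 79.0 and 66.3, and Prss47 at 34.1, 47.7 and 37.9. Prss54, of unclear function and highest in this class, was at 93.8, 114 and 105 CPM, and its level in elongating cells was 39.2, 43.0 and 40.3. The median of the 15 genes was 0.14 and 0.08, beside 0.16 and 0.09 over all genes compared.

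Of the genes below the filter, Prss23 was the most abundant, at 6.76, 4.72 and 3.83 CPM over all cells, and its highest cluster means were 28.1 CPM in cluster 6 and 24.4 in cluster 3. Its exons overlap the antisense gene Prss23os by 864 bases, and Prss23os stood at 76.7, 54.4 and 42.8 CPM. Without knowing whether strand was used in counting, reads of the pair cannot be told apart. Prss53 shares 1636 exon bases with a read-through gene on the same strand and is uncertain. Prss41, Prss38, Prss57, Prss8 and Prss12 also share exon bases with a gene on the other strand.

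Other genes of the same system were read from lists. Among other serine proteases 7 of 28 measured passed the filter over all cells, 2 higher and 5 lower with both hairpins, beside 61.0% and 28.2% of all genes, and 0 past 2-fold. In round spermatids 6 were compared, 1 higher and 4 lower (53.6% and 31.0%), with medians of -0.71 and -0.12 beside 0.16 and 0.09 over all genes. Acr, the main acrosomal protease acrosin, was at 133, 158 and 150.1 CPM over all cells and at 249.3, 268 and 262 in round spermatids. Klk1b8 and Klk1b3, of the kallikrein family, were at 503, 357 and 338 and at 118, 68.4 and 97.4 CPM over all cells. Among serine protease inhibitors 6 of 39 passed, 5 higher and 1 lower (61.0% and 28.2% of all genes), with Slpi past 2-fold higher (1.23%). Slpi, an inhibitor also made by leukocytes, was at 0.124, 77.3 and 11.5 CPM over all cells and at 0, 2.66 and 1.59 in round spermatids, and it is among the leading genes of a non-germ cluster. Spink2, the acrosin inhibitor of the acrosome, was at 674, 891 and 934 CPM over all cells, Wfdc15a at 158, 197 and 263, and Serpinb6a at 175, 134 and 156.

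Sperm ADAM proteins and genes for their processing gave 29 of 32 past the filter over all cells, 9 higher and 10 lower with both hairpins (61.0% and 28.2% of all genes) and 0 past 2-fold. Cmtm2a and Cmtm2b, which sperm need for Adam3, were at 1492, 1692 and 1663 and at 919, 1136 and 934 CPM in round spermatids, and Lypd4, needed for the same passage, at 912, 927 and 919.8. In elongating cells Adam1b was past 2-fold, at 8.29, 23.6 and 22.1 CPM (1.99% of all genes), while 12 of the 29 compared there were higher and 10 lower, beside 44.8% and 33.1% of all genes.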

How the data were processed

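The authors deposited values as the natural log of 1 plus a gene's share of the cell's UMIs times 10000, made from mm10 alignments with Cell Ranger 1.3.1 and Seurat 2.0.0 per the submitters' processing notes. The sources used here do not give strand, annotation or cell filters. Whole UMIs were recovered from these values (100.0% of non-zero values whole within 0.01) and summed, where ln means had been foreseen. The 2 knockdown columns were matched to hairpins by their last digit, and 0 columns belonged to other samples. Cells were clustered with scanpy 1.11.5 (2000 variable genes, 30 components, 15 neighbours, resolution 0.8) without Prss genes and Gm4665; doublets were not removed. Clusters were named from at least 3 markers raised 1.5-fold. Every Prss gene is accounted for, those past the filter with values; the 5 most abundant get the 2 most correlated genes, each list its 3 most abundant. Members and lists were chosen with earlier results of these data known. Positions came from GENCODE vM21 (31 of 31 members found). Depth was 40405313, 38330044 and 44640351 UMIs. Steps were tested on simulated data. Other tools were numpy 2.4.6, scipy 1.17.1, pandas 2.3.3, biopython 1.88 and blastn 2.17.0. Alternatives covered scaling, pseudocount, filter, fold threshold, cell weights, cluster weights, resolution and thinning.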

Additional observations from a re-analysis of the deposited data

Results flagged for a closer look

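For 7 Prss genes, both hairpins stood above the control in at least 1 germ class and below it in another. For 2 of them, Prss39 and Prss42, the counting intervals of both hairpins excluded 0 in each direction, and the difference was not tested. For the other 5 (Prss21, Prss43, Prss44, Prss45 and Prss54) they did not. Prss39 stood above the control in round spermatids, with log2 differences of 0.14 and 0.077, and below it in leptotene to zygotene spermatocytes, with -0.20 and -0.23. Prss42 stood above the control in round spermatids, with 0.995 and 0.47, and below it in pachytene to diplotene spermatocytes, with -0.23 and -0.23. Weighted to the control's mix of clusters, the differences of Prss42 in round spermatids were 0.38 and 0.13. With trimmed mean scaling, Prss39 in round spermatids came to 0.0061 and -0.03, so its direction there depends on the scaling.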

How the results depend on the processing

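No paired analysis was possible because each group had 1 library, and for the same reason no replicate could be left out. Of the members counted at 2-fold with both hairpins over all cells (0), trimmed mean scaling and median-of-ratios scaling each gave 1 (Prss37, lower) and a 1.5-fold threshold gave 3 (Prss56 higher, Prss37 and Prss52 lower, beside 11.4% and 4.97% of all genes). That threshold gave 2 in pachytene to diplotene spermatocytes (Prss58 and Prss52 lower, beside 1.07%) and 6 in round spermatids (Prss56 higher and the 5 late genes lower, beside 4.08% and 6.11% of all genes). In pachytene to diplotene cells Prss58 and Prss52 averaged 25.4 and 21.7 CPM, under their 38.7 and 36.5 in non-germ cells. In elongating and condensing spermatids (2), trimmed mean scaling, median-of-ratios scaling, clusters weighted to the control mix and cells thinned to 10000 UMIs each gave 1 (Prss56), as did a pseudocount of 5 CPM (Prss46). The number of genes highest in round spermatids (3) was 6 with each cell weighted equally and 5 after thinning. Under both, Prss39 became highest in elongating and condensing spermatids. In the main setting it averaged 764 CPM in pachytene to diplotene cells and 707 in elongating and condensing cells. No called value changed sign under the alternatives run. Among the folds of all compared members, the sign differed in 16 of 190 with each cell weighted equally. It differed in 14 of 190 with trimmed mean scaling, 14 of 190 with median-of-ratios scaling and 8 of 56 after thinning. With a pseudocount of 5 CPM it differed in 0 of 190, and with clusters weighted to the control mix in 5 of 156. Weighting clusters in pachytene to diplotene spermatocytes and spermatogonia was chosen after seeing the data. Depth limits the 10 genes that were not compared, which have at most 5.10 CPM over all cells.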
